A study of Mus musculus with 18 samples.

Results

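The glucose metabolism of the liver was followed through 8 genes, *Pck1*, *G6pc*, *Fbp1*, *Pcx*, *Pklr*, *Slc2a2*, *Gys2* and *Ppargc1a*, in mice given lipopolysaccharide (LPS) with or without moringa isothiocyanate-1 (MIC-1). They were chosen by symbol for their place in gluconeogenesis and glucose handling, and all 8 were found among the 21441 genes of the liver table. Livers came from wild type male C57BL/6 mice, 3 libraries per group from groups of 6 mice. The control mice received vehicle (10% DMSO) and an injection of saline. The LPS mice received 10 mg/kg LPS into the peritoneum, and the LPS+MIC-1 mice received the same after 3 days of oral gavage with MIC-1 (80 mg/kg in 10% DMSO). All livers were taken 16 h after the injection. The labels standardize the doses to the MIC-1 content of a moringa seed extract, whereas the methods of the study describe purified MIC-1. No group received MIC-1 without LPS, the ages were not given in the sources used here, and food was freely available. LPS is the endotoxin of Gram-negative bacteria, and MIC-1 is the main isothiocyanate of moringa seeds.

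Gluconeogenesis makes glucose from lactate, alanine and glycerol, and in the fasted liver it holds up blood glucose. Pyruvate carboxylase (*Pcx*) and phosphoenolpyruvate carboxykinase (*Pck1*) carry pyruvate to phosphoenolpyruvate, fructose bisphosphatase (*Fbp1*) bypasses phosphofructokinase, and the catalytic subunit of glucose-6-phosphatase (*G6pc*) frees glucose, which GLUT2 (*Slc2a2*) carries across the hepatocyte membrane. Liver pyruvate kinase (*Pklr*) runs against this flow, liver glycogen synthase (*Gys2*) stores glucose, and the coactivator PGC-1α (*Ppargc1a*) is known to turn on *Pck1* and *G6pc* in fasting.

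Values were FPKM, read fragments scaled by transcript length and library size, so levels can be set side by side between genes. The columns carried the treatment and no replicate number, so libraries are numbered within a group by their order in the table. Depth, rebuilt from the steps between low values, was 4.26 to 9.71 M reads in the control libraries, 11.0 to 17.1 M with LPS and 12.8 to 17.3 M with LPS+MIC-1. Each group held a close pair: libraries 2 and 3 of the controls, 1 and 3 of LPS and 1 and 3 of LPS+MIC-1, with squared differences that were 5.73, 6.67 and 2.39 times what sampling gives. For the other pairs within a group this was 32.5 to 78.2 times. The close pairs differed by more than sampling, which does not show that the 2 libraries of a pair came from separate mice. They were counted separately. The study describes 9 mice, but the distances do not show how far apart the animals were, so p-values measure the spread between these libraries. Genes of the acute-phase response, *Saa1*, *Saa2* and *Lcn2*, were all higher with LPS than in control, *Saa1* by 6.00 on the log2 scale (limma adjusted p = 0.013; 0.0786 with libraries 1 and 3 averaged in the LPS-injected groups and 0.0455 with control libraries 2 and 3 averaged as well). Control library 2 stood apart from the others at 1491 FPKM of *Saa1*, against 187 and 13.9 FPKM in control libraries 1 and 3.

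Differences between groups are log2 fold changes (Log2FC) of FPKM + 0.5, given with their standard error (SE) from a limma fit of all 9 libraries, and a gene was called at a Benjamini-Hochberg adjusted p below 0.05 over the 10147 genes with a mean FPKM above 1. Of the 8 genes 7 passed that filter and *Ppargc1a* did not. Between LPS and control 6 of the 7 were called, 2 higher (*Fbp1* and *Pcx*) and 4 lower (*Slc2a2*, *G6pc*, *Pklr* and *Gys2*), where 34.7% of all tested genes were called, 19.2% higher and 15.5% lower. Between LPS+MIC-1 and control the same 6 genes were called in the same directions, where 36.4% of all tested genes were called, 20.1% higher and 16.3% lower. These 2 comparisons share the control libraries. Between LPS+MIC-1 and LPS 0 of the 7 were called, where 0 of the 10147 genes were called by limma and 364 (3.59%) had an unadjusted p below 0.05. Of the 7 genes 0 had an unadjusted p below 0.05 in that comparison. A fit of reads rebuilt from the FPKM steps (voom), chosen after seeing the data, gave 6 calls among the 7 in each comparison with control. Over all 10147 genes it called 3155 for LPS and 3275 for LPS+MIC-1 against control. For LPS+MIC-1 against LPS it called 0 of the 7 and 0 of all genes. A minimum absolute Log2FC of 1 kept all 6 calls in each comparison with control, where 24.6% and 25.2% of tested genes passed. At an unadjusted p below 0.05 with that minimum, 6 of the 7 passed between LPS and control (28.4% of tested genes), 6 for LPS+MIC-1 against control (28.9%) and 0 for LPS+MIC-1 against LPS (0.986%). The median Log2FC of the 7 genes was -1.16 between LPS and control, against 0.15 over all tested genes. The same median was -1.22 for LPS+MIC-1 against control (0.15 over all genes) and -0.05 for LPS+MIC-1 against LPS (-0.01). No LPS liver lay within the control range, or the reverse, for 6 of the 7, where this held for 45% of all tested genes. For LPS+MIC-1 against control it was again 6 of 7, where all tested genes gave 54.6%.

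Fewer genes were called when close libraries were averaged as 1 sample, which also leaves fewer samples in the fit. With libraries 1 and 3 averaged in both LPS-injected groups, a setting chosen after seeing the data, 2 of the 7 genes were called between LPS and control, *G6pc* and *Slc2a2* (limma adjusted p = 0.0339 and 0.0242), where 6.23% of all tested genes were. *Fbp1* (0.0876), *Pcx* (0.0951), *Pklr* (0.0662) and *Gys2* (0.0624) were not, and all 6 were called for LPS+MIC-1 against control, where 14.2% of all tested genes were. This left control libraries 2 and 3 as separate samples. With that pair averaged as well, also chosen after seeing the data, 0 of the 7 were called between LPS and control, where 151 of the 10147 genes (1.49%) were. The adjusted p was then 0.068 for *Slc2a2*, 0.0904 for *G6pc*, 0.13 for *Pklr*, 0.17 for *Gys2*, 0.186 for *Fbp1* and 0.233 for *Pcx*. For LPS+MIC-1 against control *Slc2a2* was the 1 gene still called (adjusted p = 0.0466), where 1.58% of all tested genes were. The directions of the 6 genes did not turn in either setting. Averaging could not turn them, since control and LPS-injected libraries did not overlap for these genes.

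**Figure D1:**
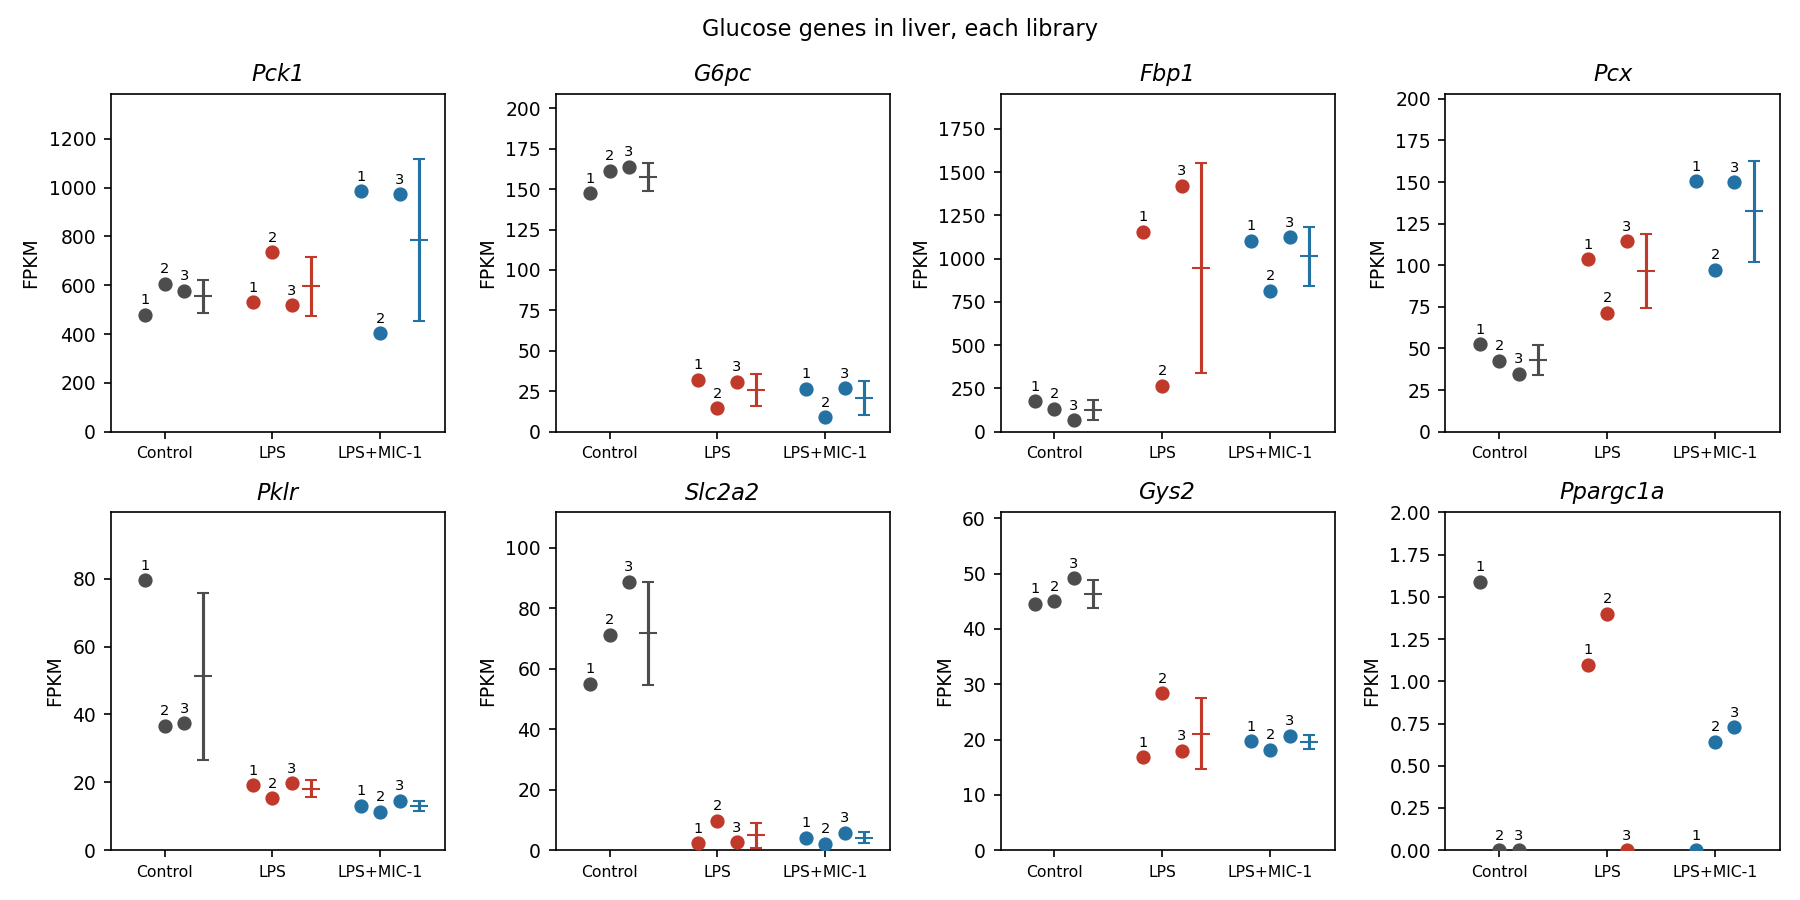
FPKM of each of the 8 genes (vertical axis, from 0, its own scale per panel) in the 9 liver libraries by group, with points numbered by library and a bar for the mean ± SD (n = 3, not drawn for Ppargc1a). Slc2a2, G6pc, Pklr and Gys2 lie lower in all 6 LPS-injected livers than in the 3 controls, and Fbp1 and Pcx lie higher.

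*G6pc* encodes the catalytic subunit of the last enzyme of glucose output, and it lies on chromosome 11 of mm9 from 101228875 to 101239217 on the plus strand. It was at 147, 161 and 164 FPKM in the controls and at 32.0, 14.5 and 31.0 FPKM with LPS. With LPS+MIC-1 it was at 26.7, 8.94 and 27.0 FPKM. The controls varied little, and every LPS-injected liver was far below them. The means were 158 ± 8.86, 25.8 ± 9.84 and 20.9 ± 10.3 FPKM (SD, n = 3 each). *G6pc* was 6.36-fold lower with LPS than in control on the FPKM + 0.5 scale (Log2FC -2.67, SE 0.45, limma adjusted p = 0.00521) and 8.24-fold lower with LPS+MIC-1 (Log2FC -3.04, limma adjusted p = 0.00291). The difference from LPS alone was -0.37 with LPS+MIC-1, with a 95% confidence interval from -1.40 to 0.66.

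*Slc2a2*, the gene of the glucose transporter GLUT2, had the largest difference of the 7 genes, and it lies on chromosome 3 from 28596825 to 28627278 on the plus strand. It was at 54.9, 71.2 and 88.7 FPKM in the controls and at 2.24, 9.79 and 2.58 FPKM with LPS. The LPS+MIC-1 livers were at 4.16, 2.19 and 5.78 FPKM. The highest LPS-injected liver, LPS library 2, was still well below the lowest control. The mean fell from 71.6 ± 16.9 to 4.87 ± 4.26 FPKM with LPS, and it was 4.04 ± 1.8 FPKM with LPS+MIC-1 (SD, n = 3 each). The Log2FC was -4.0 with LPS (SE 0.52, limma adjusted p = 0.00203), 16.0-fold lower, and -4.05 with LPS+MIC-1 (limma adjusted p = 0.00177). Behind the LPS-injected libraries stood 64.1 to 273 rebuilt reads each. The 2 LPS-injected groups differed by -0.05 on the log2 scale, with a wide 95% confidence interval from -1.23 to 1.14.

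*Fbp1*, whose enzyme bypasses phosphofructokinase at the fructose bisphosphate step, was higher with LPS, and it lies on chromosome 13 from 62966113 to 62989642 on the minus strand. It was at 176, 133 and 66.2 FPKM in the controls and at 1157, 265 and 1423 FPKM with LPS. With LPS+MIC-1 it was at 1103, 815 and 1123 FPKM. LPS library 2 lay between the controls and the other LPS libraries, and the LPS mean was 948 ± 606 FPKM (SD, n = 3). *Fbp1* was 6.53-fold higher with LPS than in control (Log2FC 2.71, SE 0.62, limma adjusted p = 0.0135) and 8.63-fold higher with LPS+MIC-1 (Log2FC 3.11, limma adjusted p = 0.00759). The call with LPS was lost without LPS library 1 (adjusted p = 0.0537) or LPS library 3 (0.0559), the close pair that carried the high values. From LPS to LPS+MIC-1 the Log2FC was 0.40 (95% confidence interval -1.02 to 1.82), and without LPS library 2 it was -0.36, not called in either case.

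*Pcx*, which makes oxaloacetate from pyruvate in the first step of the pathway, lies on chromosome 19 from 4510472 to 4621752 on the plus strand. It was at 52.7, 42.6 and 34.7 FPKM in the controls and at 104, 71.5 and 114 FPKM with LPS. The LPS+MIC-1 livers were at 150, 97.4 and 150 FPKM. Each LPS-injected liver was above each control, and library 2 was the lowest of its group in both LPS-injected groups. The rise was 2.20-fold with LPS (Log2FC 1.14, SE 0.27, limma adjusted p = 0.0148) and 3.02-fold with LPS+MIC-1 (Log2FC 1.59, limma adjusted p = 0.00441). Without control library 3, LPS library 1 or LPS library 3 the call with LPS was lost (adjusted p = 0.0537, 0.0559 and 0.0648). With MIC-1 the Log2FC against LPS was 0.45, with a 95% confidence interval from -0.16 to 1.07.

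*Pck1*, long used as the marker of transcriptional control of gluconeogenesis, was the one tested gene not called in any comparison, and it lies on chromosome 2 from 172978549 to 172984774 on the plus strand. It was at 480, 606 and 578 FPKM in the controls and at 531, 736 and 519 FPKM with LPS. With LPS+MIC-1 it was at 985, 404 and 973 FPKM. All 3 groups overlapped, and LPS+MIC-1 held both the highest and the lowest liver. The Log2FC was 0.09 between LPS and control (SE 0.36, 95% confidence interval -0.72 to 0.90, limma adjusted p = 0.856), an interval that spans falls and rises of under 2-fold. For LPS+MIC-1 against control it was 0.40 (95% confidence interval -0.41 to 1.21, limma adjusted p = 0.393). Without LPS+MIC-1 library 2 this became 0.83 and was called (adjusted p = 0.0364). Against LPS it was 0.31 (95% confidence interval -0.50 to 1.12). In LPS+MIC-1 library 2 *G6pc*, *Fbp1*, *Pcx*, *Pklr*, *Slc2a2* and *Gys2* were also the lowest of their group.

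*Pklr*, the liver and red cell pyruvate kinase of glycolysis, lies on chromosome 3 from 88940064 to 88950706 on the plus strand. It was at 79.6, 36.7 and 37.4 FPKM in the controls and at 19.2, 15.3 and 19.8 FPKM with LPS. Values with LPS+MIC-1 were 13.1, 11.4 and 14.5 FPKM. Control library 1 stood well above the other controls, yet the lowest control was above every LPS-injected liver. *Pklr* was 2.61-fold lower with LPS (Log2FC -1.39, SE 0.30, limma adjusted p = 0.0113) and 3.60-fold lower with LPS+MIC-1 (Log2FC -1.85, limma adjusted p = 0.00386). It was the only tested gene of the 8 whose LPS+MIC-1 and LPS ranges did not overlap, where this held for 9.75% of all tested genes. That difference was not called (Log2FC -0.46, 95% confidence interval -1.15 to 0.22, limma adjusted p = 0.997).

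*Gys2*, the liver glycogen synthase, lies on chromosome 6 from 142371133 to 142421629 on the minus strand. It was at 44.6, 45.0 and 49.2 FPKM in the controls and at 16.8, 28.4 and 17.9 FPKM with LPS. Values with LPS+MIC-1 were 19.7, 18.1 and 20.7 FPKM. The controls and the LPS+MIC-1 livers were each tight (SD 2.57 and 1.28 FPKM, n = 3), and LPS library 2 was the LPS liver nearest to the controls. *Gys2* was 2.23-fold lower with LPS (Log2FC -1.16, SE 0.21, limma adjusted p = 0.00651) and 2.34-fold lower with LPS+MIC-1 (Log2FC -1.22, limma adjusted p = 0.00478). Of the 7 genes it gave the narrowest interval between LPS+MIC-1 and LPS, from -0.55 to 0.42 around a Log2FC of -0.07.

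*Ppargc1a*, on chromosome 5 from 51845488 to 51958964 on the minus strand, was left out by the filter on low values. It was at 1.59 FPKM in control library 1 and listed at 0 in control libraries 2 and 3. With LPS it was at 1.10 and 1.40 FPKM in libraries 1 and 2 and listed at 0 in library 3, and with LPS+MIC-1 it was listed at 0 in library 1 and at 0.643 and 0.729 FPKM in libraries 2 and 3. The 3 groups overlapped, and in a fit with no filter its Log2FC with LPS was 0.51 (limma adjusted p = 0.634). *Ywhaz*, a gene that nearly every cell uses, was listed at 0 in 3 of the 9 libraries and at most at 2.19 FPKM, so a listed 0 does not show that a transcript was absent.

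**Figure D2:**
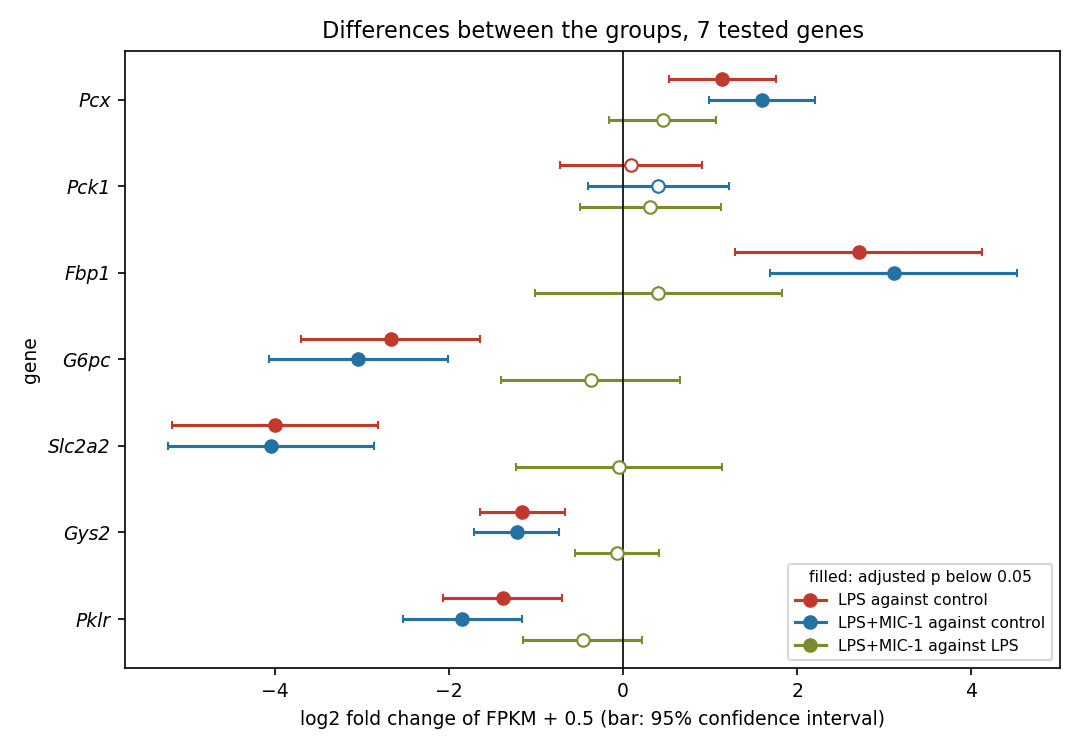
Log2 fold change of FPKM + 0.5 (horizontal axis) with its 95% confidence interval for the 7 tested genes (vertical axis) in the 3 comparisons, with filled points where the adjusted p was below 0.05. The points of LPS and of LPS+MIC-1 against control lie on the same side of 0 for each gene, and each interval between LPS+MIC-1 and LPS spans 0.

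The order of the genes by FPKM differed between the groups. *Pck1* was the highest of the 8 in 3 of 3 controls, above ranges of *G6pc* and *Fbp1* that overlapped each other. Further down, *Slc2a2* overlapped with *Fbp1* and with *Pklr*, and *Pklr*, *Gys2* and *Pcx* overlapped among themselves. With LPS *Fbp1* was the highest in libraries 1 and 3 and *Pck1* in library 2, and with LPS+MIC-1 *Fbp1* was the highest in 3 of 3. *Pcx* took the third place in all 6 LPS-injected livers, after the sixth or seventh in the controls. *G6pc*, *Gys2* and *Pklr* followed with LPS, where their ranges overlapped, and *Slc2a2* was the lowest tested gene in all 6.

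**Figure D3:**
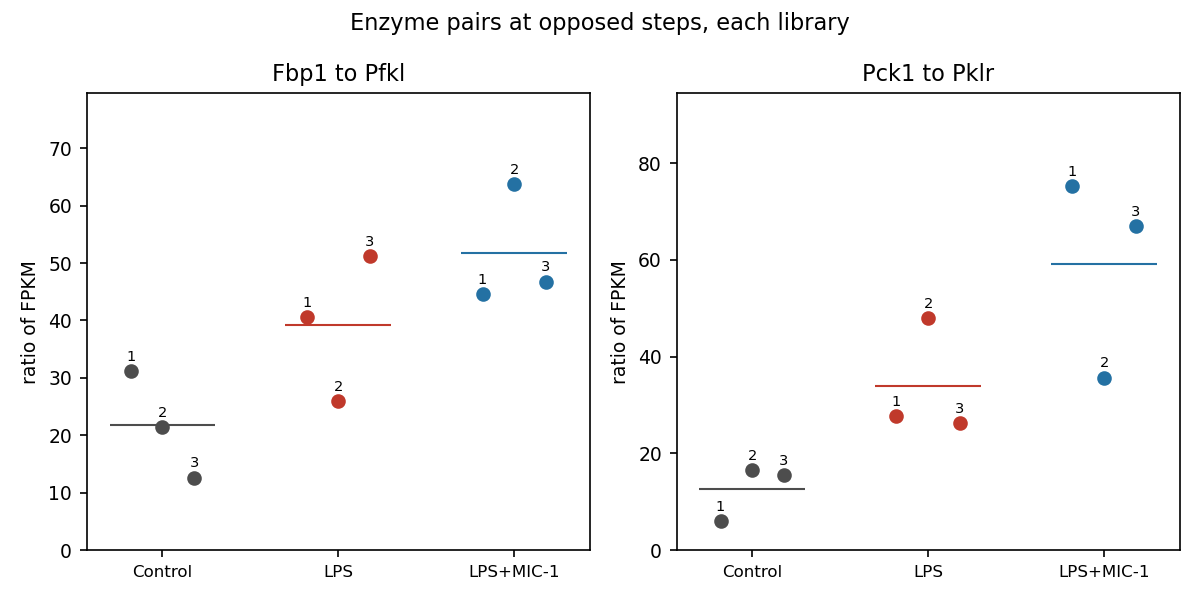
Ratio of FPKM within each liver library (vertical axis, from 0) for Fbp1 to Pfkl and for Pck1 to Pklr by group, with points numbered by library and a line for the group mean. Controls lie from 12.6 to 31.2 for Fbp1 to Pfkl and from 6.02 to 16.5 for Pck1 to Pklr, and LPS library 2 is the only LPS-injected liver inside either range (26.0 for Fbp1 to Pfkl).

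Ratios within a library set enzymes of opposed steps against each other. *Pfkl*, the liver phosphofructokinase, makes the substrate of the *Fbp1* enzyme. *Fbp1* to *Pfkl* was 31.2, 21.4 and 12.6 in the controls and 40.6, 26.0 and 51.1 with LPS. In LPS+MIC-1 livers it was 44.6, 63.7 and 46.7. Control library 1 lay above LPS library 2, so these 2 groups overlapped, while LPS+MIC-1 lay above the controls. The mean log2 ratio was 0.97 higher with LPS than in control (exact permutation test, two-sided, p = 0.2, adjusted 0.24) and 1.40 higher with LPS+MIC-1 (p = 0.1, adjusted 0.2). *Pck1* to *Pklr*, forming against using phosphoenolpyruvate, was 6.02, 16.5 and 15.4 in the controls and 27.7, 47.9 and 26.2 with LPS. In LPS+MIC-1 livers it was 75.2, 35.6 and 66.9. Every LPS-injected liver lay above every control. The difference in mean log2 ratio was 1.48 with LPS and 2.25 with LPS+MIC-1 (exact permutation test, two-sided, p = 0.1 and adjusted 0.2 each). The smallest p that 3 against 3 libraries allow is 0.1, so none of the 6 tests could pass. From LPS to LPS+MIC-1 the differences were 0.43 for *Fbp1* to *Pfkl* (exact permutation p = 0.4) and 0.77 for *Pck1* to *Pklr* (p = 0.2).

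Other enzymes and carriers of gluconeogenesis were called in both directions. Of 19 tested, 5 were higher and 1 was lower with LPS than in control, a share near the 34.7% of all tested genes, with a median Log2FC of 0.26. *Ldha*, lactate dehydrogenase A, was at 159, 122 and 36.5 FPKM in the controls, 2020, 317 and 2302 FPKM with LPS, and 1224, 941 and 1293 FPKM with LPS+MIC-1. As with *Fbp1*, LPS library 2 was far below its group (Log2FC 3.67, limma adjusted p = 0.0112). *Tpi1*, triosephosphate isomerase, was at 165, 88.4 and 58.5 FPKM in the controls, 560, 321 and 613 FPKM with LPS, and 467, 531 and 489 FPKM with LPS+MIC-1 (Log2FC with LPS 2.33, limma adjusted p = 0.00499). Both genes have near-identical copies elsewhere in the genome that pseudoalignment could have shared reads with. Whether such copies were among the transcripts used, or shared any reads, was not tested. *Slc25a10*, the mitochondrial dicarboxylate carrier, was the gene that fell, from 54.5, 61.0 and 69.1 FPKM to 9.70, 30.4 and 11.7 FPKM, with 27.9, 14.2 and 27.2 FPKM with LPS+MIC-1 (Log2FC with LPS -1.98, limma adjusted p = 0.0111). In the livers with LPS+MIC-1, 6 were higher and 1 lower than in control, where 36.4% of all tested genes were called. *Mdh2*, a malate dehydrogenase, was at 130, 45.9 and 37.4 FPKM in the controls and 145, 107 and 154 FPKM with LPS. With LPS+MIC-1 it was at 187, 132 and 189 FPKM, higher than in control (Log2FC 1.45, limma adjusted p = 0.0304). That call was lost with FPKM rescaled to the same sum (Log2FC 0.80, adjusted p = 0.107), with only 2 groups in the fit and in 4 of 9 fits that left out a library.

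Of 13 tested genes of glucose phosphorylation and glycolytic control, 6 were higher and 1 was lower with LPS, where 19.2% of all tested genes were higher and 15.5% lower, and the median Log2FC was 0.86. *Pkm2*, the pyruvate kinase gene of most other tissues, moved opposite to *Pklr*. It was at 6.21, 17.4 and 8.90 FPKM in the controls, 83.1, 45.5 and 92.4 FPKM with LPS, and 46.6, 54.6 and 41.9 FPKM with LPS+MIC-1. The Log2FC was 2.77 with LPS (limma adjusted p = 0.00283) and 2.20 with LPS+MIC-1 (0.00499). *Pfkfb2*, which makes the activator of phosphofructokinase, was higher with LPS (Log2FC 1.77, limma adjusted p = 0.00319). *Pfkfb3*, of the same family, was also called (Log2FC 1.76, limma adjusted p = 0.044), but it was at 2.19 FPKM in LPS library 2 against 13.5 and 13.7 FPKM in the others, and its call was lost in 8 of 9 fits that left out a library. Between LPS+MIC-1 and control 3 genes of the list were higher and 1 was lower, where 20.1% and 16.3% of all tested genes were. *Pfkl* was higher (Log2FC 1.71, limma adjusted p = 0.0141) and *Gckr* was lower (Log2FC -1.96, limma adjusted p = 0.00947). The call of *Pfkl* was lost with FPKM rescaled to the same sum (1.08, adjusted p = 0.0641) and in 2 of 9 fits that left out a library.

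**Figure D4:**
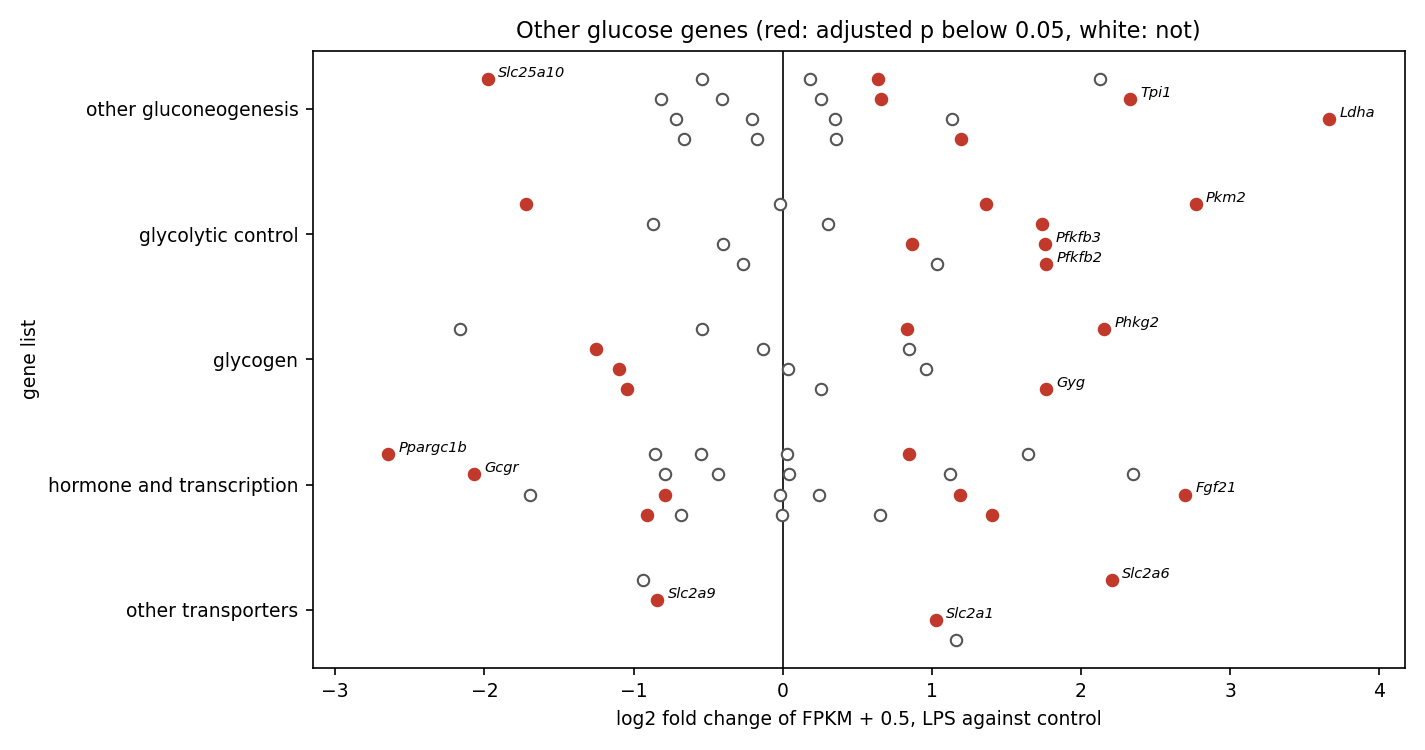
Log2 fold change of FPKM + 0.5 between LPS and control (horizontal axis) for each tested gene of 5 lists of glucose genes (vertical axis; height within a list has no meaning), with red points where the adjusted p was below 0.05. Called genes lie on both sides of 0 in each list, from -2.64 for Ppargc1b to 3.67 for Ldha.

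Of 13 tested glycogen genes, 3 were higher and 3 were lower with LPS (34.7% over all tested genes, also in both directions), with a median Log2FC of 0.04, and the counts were also 3 and 3 between LPS+MIC-1 and control. *Phkg2*, a catalytic subunit of the kinase that activates glycogen phosphorylase, was higher (Log2FC 2.15, limma adjusted p = 0.00619), as was *Gyg*, the glycogenin primer of glycogen (Log2FC 1.76, limma adjusted p = 0.0137). The call of *Gyg* was lost in 3 of 9 fits that left out a library.

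Of 23 tested hormone receptors and transcriptional regulators 4 were higher and 4 were lower with LPS, a share like the 34.7% of all tested genes, with a median Log2FC of -0.01. *Ppargc1b*, the relative of *Ppargc1a*, was at 13.3, 7.88 and 8.98 FPKM in the controls, 1.09, 2.20 and 0.544 FPKM with LPS, and 0.949, 1.44 and 0.772 FPKM with LPS+MIC-1. All LPS-injected livers were below the controls (Log2FC with LPS -2.64, limma adjusted p = 0.00279). *Fgf21*, a hepatokine of fasting and stress, was higher with LPS (Log2FC 2.70, limma adjusted p = 0.00324) and was at most at 0.638 FPKM in the controls. *Gcgr*, the glucagon receptor, was at 214, 410 and 483 FPKM in the controls, 41.2, 278 and 48.9 FPKM with LPS, and 143, 172 and 139 FPKM with LPS+MIC-1. LPS library 2 overlapped with the controls, and the call (Log2FC -2.07, limma adjusted p = 0.0417) was lost in 7 of 9 fits that left out a library. In LPS+MIC-1 against control 3 were higher and 3 lower, where 36.4% of all tested genes were called. *Cebpb*, an acute-phase transcription factor, was at 30.8, 23.1 and 20.5 FPKM in the controls and 70.2, 41.4 and 61.9 FPKM with LPS. With LPS+MIC-1 it was at 55.4, 32.4 and 59.7 FPKM, higher than in control (Log2FC 0.94, limma adjusted p = 0.0392). That call was lost with FPKM rescaled to the same sum (Log2FC 0.30, adjusted p = 0.423), with no filter and in 5 of 9 fits that left out a library.

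Glucose transporters other than *Slc2a2* were low. Of 5 tested, 2 were higher and 1 was lower with LPS (34.7% over all tested genes), with a median Log2FC of 1.03. *Slc2a1*, the GLUT1 gene of most tissues, was at 6.33, 5.01 and 5.68 FPKM in the controls, 13.3, 9.96 and 13.1 FPKM with LPS, and 11.0, 7.83 and 10.1 FPKM with LPS+MIC-1. It moved against *Slc2a2* (Log2FC with LPS 1.03, limma adjusted p = 0.00732), and in all 6 LPS-injected livers its FPKM was above that of *Slc2a2*. With LPS+MIC-1 it was the 1 gene of the list called against control (Log2FC 0.71, limma adjusted p = 0.0235), where 36.4% of all tested genes were. That call was lost with FPKM rescaled to the same sum (0.10, adjusted p = 0.733) and in 4 of 9 fits that left out a library. *Slc2a6*, which encodes GLUT6, was at most at 0.668 FPKM in the controls and was higher with LPS (Log2FC 2.21, limma adjusted p = 0.00684). *Slc2a9*, a urate carrier, was lower (Log2FC -0.84, limma adjusted p = 0.0454), a call lost in 7 of 9 fits that left out a library. Between LPS+MIC-1 and LPS 0 genes of these 5 lists were called by limma, and 0 of the 7 members.

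With the close LPS-injected pairs averaged, *Ldha* (limma adjusted p = 0.0752), *Slc25a10* (0.0712), *Pfkfb3* (0.20), *Gyg* (0.0746), *Gcgr* (0.19), *Slc2a1* (0.0636) and *Slc2a9* (0.172) were not called between LPS and control, and *Tpi1*, *Pkm2*, *Pfkfb2*, *Phkg2*, *Ppargc1b*, *Fgf21* and *Slc2a6* were. With the control pair averaged as well, none of these 14 was called in that comparison, and the lowest adjusted p was 0.0627, for *Pkm2*. *Mdh2*, *Pfkl*, *Cebpb* and *Slc2a1* were not called between LPS+MIC-1 and control in either setting, and *Gckr* (0.0495) and *Pkm2* (0.0331) were called in the first and not in the second (0.13 and 0.0679).

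Whole liver was sequenced, so fewer cells of a type and less RNA per cell cannot be told apart. Hepatocyte markers were present in every library: the 8 genes summed to 51720 to 101111 FPKM in the controls, 53227 to 60655 FPKM with LPS and 49961 to 65956 FPKM with LPS+MIC-1. Of these 8, *Fgb* was called higher and *Cps1* lower with LPS, and 6 were not called. The call of *Cps1* was lost in 5 of 9 fits that left out a library, and both were lost with the close LPS-injected pairs averaged. Neutrophil markers moved in both directions with LPS. The 8 genes summed to 36.8 to 52.3 FPKM in the controls, 347 to 443 FPKM with LPS and 189 to 458 FPKM with LPS+MIC-1. Of 6 tested, 5 were called higher and 1, *Cxcr2*, lower, where 34.7% of all tested genes were called. *Cxcr2* was at 26.5, 42.6 and 36.2 FPKM in the controls and 7.19, 10.1 and 3.89 FPKM with LPS. It was the largest part of the control sums, and *S100a8* (228, 269 and 286 FPKM with LPS) was the largest part of the LPS sums. *S100a9* was listed at 0 in control libraries 1 and 2. Monocyte markers summed to 20.9 to 34.6, 110 to 158 and 107 to 128 FPKM, with 3 of 5 tested called higher. None of these markers was listed at 0 in all 9 libraries. Kupffer cell markers had 2 called higher and 2 lower of 6. The part of these cells in the levels of the glucose genes was not tested. In RAW264.7 macrophages, sequenced in a separately normalized table, *Pcx* was at 1.25 to 6.63 FPKM and *Fbp1* at 0.0974 to 0.677 FPKM, and each of the other 6 genes was at most at 0.175 FPKM in all 9 libraries.

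The gene most like each member over the 9 liver libraries, by Pearson's r of log2 values, was named as a description of likeness only, since all points share the same libraries and treatments. *Slc2a2* was most like *Ttc39c* (r = 0.994), *Gys2* most like *Hsd3b2* (r = 0.994) and *G6pc* most like *4932438A13Rik* (r = 0.985). *Pcx* was most like *Trf*, the gene of transferrin (r = 0.998), which was at 1407 to 3037 FPKM in the controls, 4476 to 8585 FPKM with LPS and 6530 to 12998 FPKM with LPS+MIC-1. *Fbp1* was most like *Spcs1* (r = 0.996), *Pklr* most like *Stk40* (r = 0.983) and *Pck1* most like *C1qtnf1* (r = 0.929).

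Sequences before the start sites of 4 genes are shown because they differed most in their response: *G6pc* and *Slc2a2* with the largest falls, *Fbp1* with the largest rise, and *Pck1*, added after its values were seen, which was not called. Each is the 250 bases upstream of the RefSeq start site (GRCm38.p6 table), placed in mm9 by its only exact match, printed 5′ to 3′ on the strand of the gene. Capitals mark letters of 5 motifs searched on both strands: the core of the cAMP response element (TGACG), a forkhead motif (TGTTTAC), the E box (CACGTG), the core of an HNF1 site (GTTAAT) and the TATA box (TATAAA). G6pc lies at chr11:101228780-101229029 (plus strand), Slc2a2 at chr3:28596575-28596824 (plus strand), Fbp1 at chr13:62989643-62989892 (minus strand) and Pck1 at chr2:172978324-172978573 (plus strand). For G6pc and Pck1 the RefSeq start lies inside the gene as GENCODE M1 draws it.
G6pc: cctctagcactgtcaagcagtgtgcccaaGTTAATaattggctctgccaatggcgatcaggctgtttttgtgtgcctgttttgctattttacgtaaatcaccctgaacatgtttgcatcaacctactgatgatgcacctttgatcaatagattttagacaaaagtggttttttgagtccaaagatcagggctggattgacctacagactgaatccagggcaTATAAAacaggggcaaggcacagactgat
Slc2a2: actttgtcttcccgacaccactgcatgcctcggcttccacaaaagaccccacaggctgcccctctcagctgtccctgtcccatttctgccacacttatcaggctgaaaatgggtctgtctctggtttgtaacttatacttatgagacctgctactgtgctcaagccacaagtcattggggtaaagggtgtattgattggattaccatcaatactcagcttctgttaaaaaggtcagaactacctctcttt
Fbp1: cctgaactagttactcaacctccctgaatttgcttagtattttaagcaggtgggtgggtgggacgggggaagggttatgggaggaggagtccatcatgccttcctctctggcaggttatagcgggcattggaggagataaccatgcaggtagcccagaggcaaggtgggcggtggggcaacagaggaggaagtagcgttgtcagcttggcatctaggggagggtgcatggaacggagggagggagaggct
Pck1: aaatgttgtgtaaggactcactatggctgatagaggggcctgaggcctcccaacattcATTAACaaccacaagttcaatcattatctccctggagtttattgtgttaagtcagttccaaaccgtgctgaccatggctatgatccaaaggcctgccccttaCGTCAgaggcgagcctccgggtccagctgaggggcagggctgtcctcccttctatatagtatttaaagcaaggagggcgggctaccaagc

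Of the 8 genes 7 had a promoter in the RefSeq table, with 9 start sites in all, and *Gys2* had none. In *G6pc*, GTTAAT began 221 bases and TATAAA 29 bases before the start. *Pck1* held CGTCA, the reverse of TGACG, 90 bases before the start, and ATTAAC, the reverse of GTTAAT, 192 bases before it. *Slc2a2* and *Fbp1* held none of the 5 motifs in this window. Of the remaining called genes, the second start site of *Pklr* held TATAAA 31 bases before it and the first start site of *Pcx* held CACGTG 248 bases before it, a palindrome read on both strands. *Ppargc1a* held CGTCA 49 bases before its start. Among 32536 distinct upstream windows of this length, TGACG was in 17.9%, TGTTTAC in 3.17%, CACGTG in 6.04%, GTTAAT in 6.47% and TATAAA in 12.3%. A match is a run of letters and not a site, and no match says only that these letters are not in the window.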

How the data were processed

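RNA-seq of 9 livers and 9 cultures of RAW264.7 macrophages (a mouse macrophage-like cell line) was used, 3 per group. The authors pseudoaligned reads to RefSeq transcripts of mm9 with kallisto 0.45.0. Gene sums came from tximport, and DESeq2 1.20.0 gave the deposited FPKM, scaled by size factors. The deposited comparisons hold the authors' mean normalized counts (the signal over all libraries, as the authors computed it), fold changes and p-values; only the mean was read, to rebuild size factors and depth, and none of the other columns was used. All columns were matched to a group by name (0 unmatched).

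The members and lists were chosen with earlier results of these data known. Liver genes with a mean FPKM above 1 were tested on log2(FPKM + 0.5) with limma 3.58.1 (R 4.3.3; lmFit, contrasts, eBayes with trend), the 3 groups in 1 fit, Benjamini-Hochberg over 10147 genes. Tables of the 2 tissues were not compared. Ratios were tested with exact permutation tests, two-sided, adjusted over 6 tests. Some planned results are not reported here. Depth was rebuilt from low values, of which 92.6 to 96.8% were whole reads within 0.1. Intervals cover the spread between libraries.

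Named genes were the 8 members; of 5 lists of glucose genes those called with the 3 largest changes in LPS against control and up to 3 in each other comparison; the most correlated gene of each tested member; and *Saa1*, *Saa2* and *Lcn2*. On simulated data for LPS against control (10147 genes, 50 changed per size) the fit called 17, 38, 43 and 44 at absolute log2 changes of 1, 2, 3 and 4, with 0 in the wrong direction and 4 false calls. The simulated libraries were independent, without close pairs, and few genes changed. These counts therefore do not show how many calls in the liver data are false. Alternatives covered the pseudocount, filter, scaling, trend, groups fitted, threshold and each library left out. Other steps ran in Python 3.11.15 (pandas 2.3.3, numpy 2.4.6), with plots from matplotlib 3.10.9.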

Additional observations from a re-analysis of the deposited data

How the results depend on the processing

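The 6 calls between LPS and control, and the 6 between LPS+MIC-1 and control, were counted again under other settings. Both pseudocounts, no filter, both other scalings, no trend, only 2 groups in the fit and both fold limits gave 6 each time. Over all genes these settings gave 2355 (only 2 groups in the fit) to 3719 calls (no filter, with more genes tested) between LPS and control. Between LPS+MIC-1 and control they gave 2560 (adjusted p with the fold limit) to 4176 (FPKM rescaled to the same sum). Leaving out 1 library gave 4 to 6 and 6 to 7 member calls, and 0 in every case between LPS+MIC-1 and LPS. The 4 came without LPS library 1 or 3. Averaging the close LPS-injected pairs, chosen after seeing the data, gave 2 calls for LPS and 6 for LPS+MIC-1 against control, and with the close control pair averaged too these were 0 and 1. Over all genes the first gave 632 and 1444 calls and the second 151 and 160, against 3520 and 3692. Leaving out 1 library gave 1396 (without LPS library 3) to 4967 genes between LPS and control, 2035 (without LPS+MIC-1 library 3) to 4585 between LPS+MIC-1 and control, and 0 to 36 (without LPS library 2) between LPS+MIC-1 and LPS. The counts between LPS and control were also low without control library 2 (1944), control library 3 (1968) or LPS library 1 (1664), and between LPS+MIC-1 and control without control library 2 (2197), control library 3 (2298) or LPS+MIC-1 library 1 (2137). With only the 2 groups in the fit 2355 genes were called between LPS and control. Between LPS+MIC-1 and LPS 1 gene was called with pseudocount 1, 2 with no filter, 1 without trend and 100 with an unadjusted p and a fold limit.

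With FPKM rescaled to the same sum, the median Log2FC of all genes moved to -0.18, -0.26 and -0.43 (LPS against control, LPS+MIC-1 against LPS, LPS+MIC-1 against control). The calls then split as 1119 higher and 2473 lower instead of 1947 and 1573, and as 733 and 3443 instead of 2038 and 1654. *Pck1* turned to -0.27 with LPS and -0.25 with LPS+MIC-1 against control, not called. None of the 6 called members changed direction in these comparisons with control under any setting. Their libraries did not overlap with the controls, so leaving out or averaging libraries, or another pseudocount, could not turn them. Only the other scalings and the fit of rebuilt reads could have. Signs turned only in values that were not called. Over the fits without 1 library, *Pck1* ran from -0.072 (without LPS library 2; -0.01 without control library 1) to 0.18 with LPS. For LPS+MIC-1 against LPS, *Fbp1* ran from -0.36 to 0.86, *Slc2a2* from -0.39 to 0.56 and *Gys2* from -0.21 to 0.16, with the sign turned without LPS library 2, and *G6pc* ran from -0.74 to 0.14, turned without LPS+MIC-1 library 2, where *Slc2a2* was 0.29. *Slc2a2* was 0.064 with voom on rebuilt reads, also chosen after seeing the data. The causes were not tested. No ratio changed sign. No paired analysis was possible because the columns of the table carry no replicate numbers.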
